A study of Mus musculus and Homo sapiens with 23 samples.

Results

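The galectin, osteopontin and Gpnmb genes of BV2 cells are described here: Lgals1, Lgals3, Lgals8 and Lgals9, the galectin 3 binding protein gene Lgals3bp, the osteopontin gene Spp1, and Gpnmb. They were chosen by name and found through the RefSeq identifiers of the 2 deposited RNA tables. They are 7 of 21597 genes and hold 14 of 28246 transcript rows. BV2 is a line of mouse microglia immortalised with a retrovirus that carries the v-raf and v-myc oncogenes, so it is a dividing model of a cell that rarely divides in the brain. One library came from BV2 cells treated for 3 h with LPS, a lipopolysaccharide of the bacterial outer membrane that Toll-like receptor 4 senses. The other came from unstimulated BV2 cells. The sources used here name neither the dose of LPS nor the medium in which BV2 was grown. Of 23 samples in the series, which is about the acetylated histone H2BK20ac, the other 21 were not analysed here.

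Galectins are lectins that bind beta-galactosides. They are made in the cytosol without a signal peptide, reach the cell surface and the outside by an unconventional route, and cross-link glycoproteins there. Inside the cell they also recognise the glycans of vesicles whose membrane has been torn. Osteopontin is a secreted phosphoprotein that binds integrins and CD44, and Gpnmb is a transmembrane glycoprotein of endosomes and melanosomes. Lgals3, Spp1 and Gpnmb are widely used as marks of microglia and macrophages that take up lipid and debris, whereas Lgals9 and Lgals3bp are known as genes that interferon induces.

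Values are FPKM, which divides fragments by transcript length and by library size, so levels of different genes can be set side by side. The range in brackets after an FPKM is the 95% interval that the authors' program gave for that 1 library. For a gene with more than 1 transcript row it was built here from the row intervals, taken as independent. A range after a ratio joins the intervals of both libraries. The interval covers counting and the assignment of fragments, not the spread between cultures. A change is the difference in log2(FPKM + 1), LPS minus unstimulated, and a gene was called higher or lower at a change of 1 or more in size. With 1 library in each group there is no test across replicates, and no p-value is given. Every difference compares these 2 libraries. The fragments implied by the intervals summed to 16910000 in the LPS library and 13790000 in the unstimulated library. These sums are not counts of sequenced fragments, since the interval of a gene with several rows also holds the assignment of fragments. The Spp1 row NM_001204202, for example, implied 5830 fragments in the LPS library and 17907 in the unstimulated library, at 1023 and 1172 FPKM. The microglial label was checked against marker genes. Of 14 measured macrophage and microglia markers 12 were at 1 FPKM or more in either library, led by Tyrobp, a signalling adaptor (3064 and 4128 FPKM in the LPS and unstimulated libraries). The markers of microglia in the brain were low. P2ry12 was at 0.223 FPKM in the LPS library and 1.19 FPKM in the unstimulated library, Tmem119 at 0.601 and 2.16 FPKM and Cx3cr1 at 0.0615 and 0.142 FPKM in the same order, and Sall1 was listed at 0 in both. Summed FPKM over the markers was 0.228 and 0.170 for neurons, 0.0782 and 0.180 for astrocytes, 0.523 and 0.824 for oligodendrocytes, and 0.0770 and 0.0404 for lymphocytes in the same order of libraries. Fibroblast markers summed to 0.0341 FPKM in the LPS library and were listed at 0 in the unstimulated library. Endothelial markers summed to 24.9 FPKM in the LPS library and 18.4 FPKM in the unstimulated library, nearly all of it from the growth factor receptor genes Flt1 and Kdr, and Cldn5 and Tek were listed at 0 in both libraries. Melanocyte and osteoblast markers, checked because Gpnmb and Spp1 are also made by those cells, summed to 14.6 FPKM in the LPS library and 18.6 FPKM in the unstimulated library, most of it from the phosphatase gene Alpl, with Dct, Tyrp1, Ibsp and Sp7 listed at 0 in both libraries. The melanocyte markers Mlana (1.85 FPKM in the LPS library, 2.30 FPKM in the unstimulated library) and Tyr (0.754 FPKM in the LPS library, 0.279 FPKM in the unstimulated library) were above 0 but low.

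The 7 genes divided by level and by response. Lgals9 and Lgals3bp were much higher in the LPS library, and in unstimulated cells they were low beside Lgals1, Lgals3, Spp1 and Gpnmb. Those abundant genes were among the highest transcripts of both libraries and none of them passed the size rule. Lgals8 was low beside them in both. Thus 2 of 7 genes were higher and 0 of 7 lower, against 8.54% and 12.4% of all 10034 counted genes (those at 1 FPKM or more in either library). All 7 were above 1 FPKM in both libraries, so none was counted through its LPS value alone. The median change of the 7 was 0.34, and that of all counted genes was -0.24. The intervals of the libraries, joined over rows where a gene has more than 1, were separate for 7 of 7 genes. They were separate for 73.5% of counted genes and 86.0% of those at 100 FPKM or more, so separation at these depths is common.

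**Figure D1:**
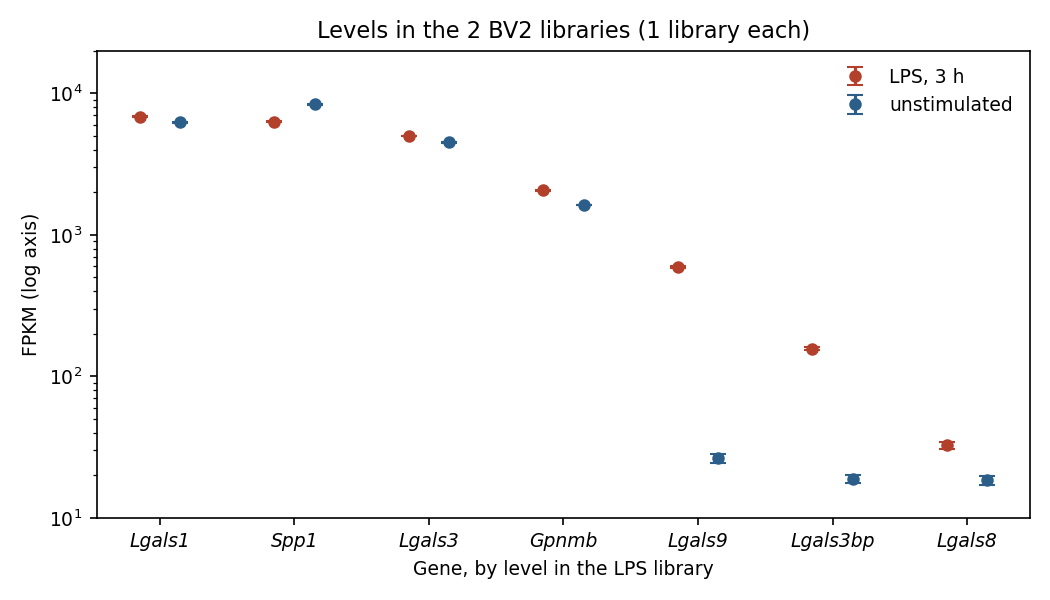
FPKM of the 7 genes on a log axis, LPS library left of the unstimulated library for each gene, with the deposited 95% interval as bars that are mostly smaller than the points. Lgals9 and Lgals3bp are wide apart between the libraries, and the 4 abundant genes sit above 1620 FPKM in both.

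Lgals9 encodes galectin 9, a galectin with 2 carbohydrate-binding domains joined by a linker, known as a ligand of TIM-3 on T cells (mm9 chromosome 11, 78776481 to 78798426). It was at 594 FPKM (584 to 603) in the LPS library and 26.3 FPKM (24.4 to 28.3) in the unstimulated library. The change was 4.44, and the ratio of FPKM was 22.5 (20.9 to 24.3). In the order of all counted genes Lgals9 stood at place 175 in the LPS library and place 2422 in the unstimulated library. It made up 4.76% of the summed FPKM of Lgals1, Lgals3, Lgals8 and Lgals9 in the LPS library, against 0.244% in the unstimulated library, so it stayed a minor galectin by level. Both of its transcript rows carried the rise. NM_001159301 was at 571 FPKM (562 to 580) in the LPS library and 25.6 FPKM (23.7 to 27.6) in the unstimulated library. The second row, NM_010708, was at 22.1 FPKM (19.8 to 24.4) in the LPS library and 0.684 FPKM (0.268 to 1.10) in the unstimulated library. Its share of the gene was 3.72% (3.35 to 4.10) in the LPS library and 2.60% (1.05 to 4.15) in the unstimulated library, and these ranges overlap. The row of a microRNA, Mir684-1, overlaps the locus and was left out with the other small RNA rows.

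Lgals3bp encodes a secreted scavenger receptor-like glycoprotein that galectin 3 binds (mm9 chromosome 11, 118254066 to 118263245). Its 1 transcript row was at 157 FPKM (153 to 160) in the LPS library and 18.9 FPKM (17.5 to 20.2) in the unstimulated library. This is a change of 2.99 and a ratio of 8.30 (7.71 to 8.94). The LPS value rests on 7097 implied fragments and the unstimulated value on 814. Its place among counted genes was 618 in the LPS library and 3037 in the unstimulated library. While Lgals3bp rose, its partner Lgals3 did not pass the size rule, and the LPS library held 31.9 FPKM of Lgals3 for each FPKM of Lgals3bp, against 239 in the unstimulated library.

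Both rising genes were read beside 15 measured interferon-stimulated genes, all of which rose, against 8.54% of all counted genes. Their median change was 6.16. That list was picked with earlier results of these data known, and 3 of its members, Ifit1, Ifit3 and Mx1, were below 1 FPKM in unstimulated cells and counted through the LPS value. Cxcl10 (10.10), Ifit1 (8.87), Rsad2 (8.85) and Isg15 (8.32) changed most. Irf9, a subunit of the interferon-activated factor ISGF3, was the listed gene nearest to Lgals3bp in size of change (2.99, at 31.5 FPKM in the LPS library and 3.11 FPKM in the unstimulated library). Irf1, another factor of that response, changed by 5.03 and Ifi35 by 3.39, with Lgals9 between them. The smallest change in the list was that of Bst2, which tethers budding virus (1.65).

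Promoter windows of the genes were read because the 2 that rose can be set beside abundant ones that did not pass the size rule. RefSeq promoters of build GRCm38.p6 were held for 6 of the 7 genes, in 7 windows, with Lgals1 not among them. The windows of Lgals9, Lgals3bp, Spp1 (the first of its 2) and Gpnmb are shown 5′ to 3′ on the strand of the gene, from 250 bases before the start site to 30 bases after it. Capitals mark every match to any of 6 motifs on either strand.
Lgals9, chr11:78984895-78985174, minus strand: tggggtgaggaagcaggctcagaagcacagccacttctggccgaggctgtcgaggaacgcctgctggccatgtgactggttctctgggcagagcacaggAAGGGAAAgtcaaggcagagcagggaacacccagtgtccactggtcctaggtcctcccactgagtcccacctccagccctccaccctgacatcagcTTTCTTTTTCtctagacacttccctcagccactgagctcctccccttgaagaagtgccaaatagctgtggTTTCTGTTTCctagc
Lgals3bp, chr11:118401930-118402209, minus strand: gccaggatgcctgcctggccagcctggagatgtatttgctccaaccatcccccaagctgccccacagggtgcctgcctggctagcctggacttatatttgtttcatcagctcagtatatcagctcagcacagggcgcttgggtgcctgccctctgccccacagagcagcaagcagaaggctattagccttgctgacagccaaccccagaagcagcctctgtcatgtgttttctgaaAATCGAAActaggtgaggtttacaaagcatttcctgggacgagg
Spp1, chr5:104434861-104435140, plus strand: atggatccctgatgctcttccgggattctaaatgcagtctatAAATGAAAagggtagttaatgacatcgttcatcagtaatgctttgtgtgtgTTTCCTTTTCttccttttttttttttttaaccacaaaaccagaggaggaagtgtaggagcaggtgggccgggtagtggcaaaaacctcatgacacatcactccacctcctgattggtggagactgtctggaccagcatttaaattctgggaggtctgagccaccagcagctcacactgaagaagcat
Gpnmb, chr6:49036268-49036547, plus strand: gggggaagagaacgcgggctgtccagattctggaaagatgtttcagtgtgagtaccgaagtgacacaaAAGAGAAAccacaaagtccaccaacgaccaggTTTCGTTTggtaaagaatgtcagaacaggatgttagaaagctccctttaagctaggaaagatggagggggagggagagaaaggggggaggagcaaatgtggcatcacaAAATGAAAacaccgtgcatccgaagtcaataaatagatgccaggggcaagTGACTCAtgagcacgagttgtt

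The interferon response motif GAAANNGAA was matched in the window of Lgals9, once from -54 and once from 17 bases relative to the start site, both on the opposite strand. It was also matched once in the Spp1 window from -156, and 8.56% of 32851 promoters hold it. Motifs were searched from 250 bases before to 50 bases after the start site in every promoter, further than the stretch printed. Lgals3bp has no match to it. The shorter core AANNGAAA, which overlaps that motif and was added after the windows had been read, was matched in Lgals3bp from -14 and in 5 of the 7 windows in all, among them those of Spp1 and Gpnmb. It is common, with 23.9% of promoters holding it. The AP-1 motif TGANTCA was matched in the Gpnmb window from 9 (7.81% of promoters), and an NF-kB motif in the windows of Lgals3 and Lgals8 (8.46% of promoters). The STAT motif TTCNNNGAA (8.30% of promoters) and the E-box core CACGTG of Mitf and Tfeb (7.15%) had 0 matches in the 7 windows. Matches are letters in a window and show no binding.

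Lgals8 encodes galectin 8, which has 2 carbohydrate-binding domains and marks damaged vesicles for autophagy (mm9 chromosome 13, 12531682 to 12554005). It was the lowest of the 7 genes, at 32.5 FPKM (30.8 to 34.3) in the LPS library and 18.4 FPKM (17.1 to 19.6) in the unstimulated library. The ratio was 1.77 (1.62 to 1.93) and the change 0.79, short of the size rule. Its 2 transcript rows moved by different amounts. The minor row, NM_001199043, was at 8.02 FPKM (7.10 to 8.95) in the LPS library and 2.18 FPKM (1.67 to 2.69) in the unstimulated library, a change of 1.51. The major row, NM_018886, was at 24.5 FPKM (23.0 to 26.0) in the LPS library and 16.2 FPKM (15.0 to 17.3) in the unstimulated library, a change of 0.57. The minor row held 24.7% of the gene (22.3 to 27.1) in the LPS library and 11.8% (9.29 to 14.4) in the unstimulated library. These shares rest on how fragments were divided between the rows, with 73 implied for the minor row in unstimulated cells. In unstimulated cells Lgals8 and Lgals3bp did not differ beyond their intervals.

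Lgals1 encodes galectin 1, the prototype small galectin that acts as a dimer (mm9 chromosome 15, 78757155 to 78760895). Its 1 row was at 6833 FPKM (6789 to 6878) in the LPS library and 6233 FPKM (6190 to 6277) in the unstimulated library. The ratio was 1.10 (1.09 to 1.11) and the change 0.13. It was the 5th most abundant of all counted genes in both libraries.

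Lgals3 encodes galectin 3, also called Mac-2, a chimera-type galectin with a long N-terminal tail that lets it form oligomers (mm9 chromosome 14, 47993535 to 48005842). It was at 4997 FPKM (4963 to 5032) in the LPS library and 4501 FPKM (4471 to 4532) in the unstimulated library. The ratio was 1.11 (1.10 to 1.12) and the change 0.15. Its transcript rows differed in change. NM_001145953 was at 1582 FPKM (1559 to 1606) in the LPS library and 922 FPKM (906 to 938) in the unstimulated library, a change of 0.78. NM_010705 was at 3415 FPKM (3389 to 3441) in the LPS library and 3579 FPKM (3553 to 3605) in the unstimulated library, a change of -0.07. The share of NM_001145953 was 31.7% (31.3 to 32.0) in the LPS library and 20.5% (20.2 to 20.8) in the unstimulated library. Neither row passed the size rule on its own. The shares of Lgals3, like those of Lgals8, Lgals9 and Spp1, rest on how the authors' program divided fragments between overlapping transcripts of 1 locus. The share ranges take the rows as independent, and no replicate checks the shares.

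**Figure D2:**
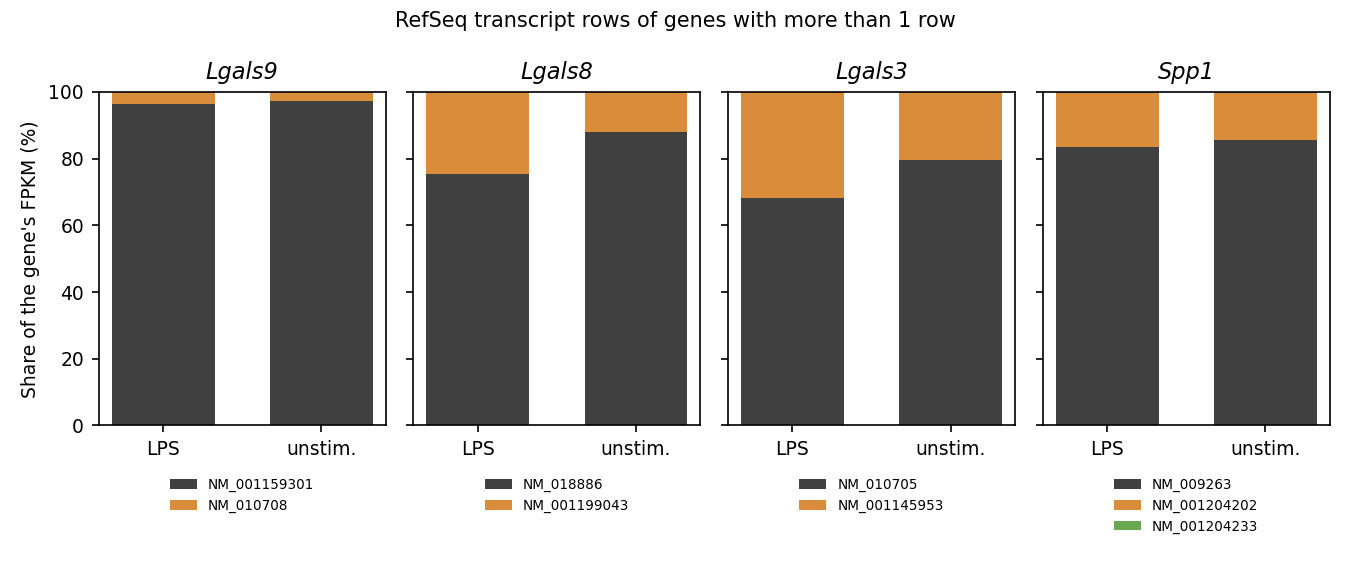
Share of each gene's FPKM, in percent, held by its RefSeq transcript rows, LPS library left of the unstimulated library, for the 4 genes with more than 1 row. The minor rows of Lgals8 and Lgals3 hold 24.7% and 31.7% in the LPS library, against 11.8% and 20.5% in the unstimulated library, and the Spp1 row at 0.159% and 0.342% is too thin to see.

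Spp1 encodes osteopontin (mm9 chromosome 5, 104864130 to 104870072). It was at 6311 FPKM (6271 to 6351) in the LPS library and 8375 FPKM (8335 to 8414) in the unstimulated library, where it was the 2nd most abundant of all counted genes. In the LPS library it stood at place 7. The ratio was 0.754 (0.748 to 0.760) and the change -0.41, which did not pass the size rule. On the deposited FPKM, Spp1 was the only one of the 7 genes whose change lay below the median of all counted genes, by -0.17. The main row, NM_009263, held 83.6% of the gene in the LPS library and 85.7% in the unstimulated library, and NM_001204202 held 16.2% and 14.0% in the same order. A row that starts 1081 bases further along, NM_001204233, was at 10.0 FPKM (8.42 to 11.6) in the LPS library and 28.6 FPKM (25.9 to 31.4) in the unstimulated library. Its change of -1.43 passed the size rule as a row, but it held 0.159% of the gene in the LPS library and 0.342% in the unstimulated library. The other 2 rows were below 0.001 FPKM in both libraries.

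Gpnmb (mm9 chromosome 6, 48986517 to 49008181) had 1 row, at 2059 FPKM (2049 to 2069) in the LPS library and 1629 FPKM (1620 to 1638) in the unstimulated library. The ratio was 1.26 (1.25 to 1.27) and the change 0.34. It stood at place 55 in the LPS library and place 51 in the unstimulated library. Its values rest on 170583 implied fragments in the LPS library and 128481 in the unstimulated library.

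Within the LPS library the genes ran, from high to low, Lgals1, Spp1, Lgals3, Gpnmb, Lgals9, Lgals3bp and Lgals8, and the intervals of all neighbours in that order were separate. The unstimulated library had Spp1 before Lgals1 and the same order after that, with Lgals3bp and Lgals8 the only neighbours whose intervals overlapped. The 7 genes together held 3.20% of the summed FPKM in the LPS library and 3.76% in the unstimulated library. Their own sum was 20983.5 FPKM in the LPS library and 20801.6 FPKM in the unstimulated library. The sum over all genes was 655777 and 553265 FPKM in the same order, so the share was lower although the sum of the 7 was not. In bulk RNA a change in the share of cells that express a gene and a change in its RNA per cell cannot be told apart.

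**Figure D3:**
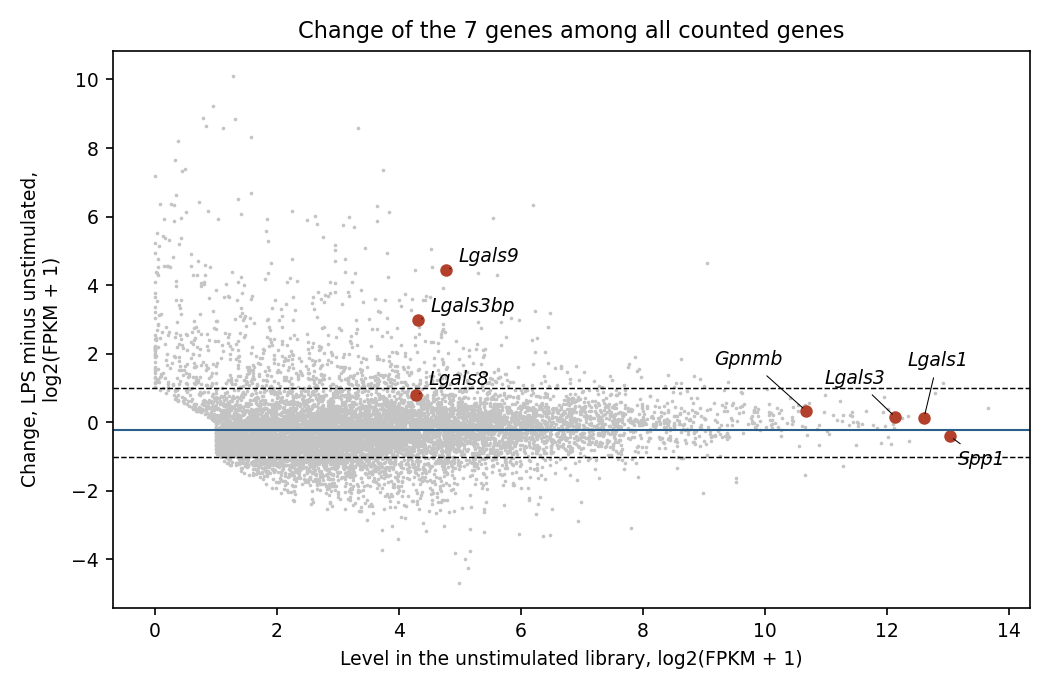
Change (LPS minus unstimulated) of all 10034 counted genes against their level in unstimulated cells, both on the log2(FPKM + 1) scale, with the 7 genes in red, the size rule as dashed lines and the median of all genes (-0.24) as a blue line. Lgals9 (4.44) and Lgals3bp (2.99) lie above the upper dashed line and the other 5 between the lines.

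The sign of the change depended on the scaling for 3 of the 7 genes, Lgals1, Lgals3 and Gpnmb. Rescaling to TPM moved the median of all counted genes by -0.24, quantile normalisation moved it by 0.11, and median scaling moved it by 0.24. The split of all calls moved with it, from 40.7% higher and 59.3% lower on the deposited FPKM to 24.6% and 75.4% in TPM, 61.3% and 38.7% after median scaling, and 53.2% and 46.8% after quantile normalisation. Lgals9 stayed between 4.22 and 4.68 and Lgals3bp between 2.76 and 3.23 under all 9 alternatives. Some of these could not move any of the 7 genes, namely no filter, a filter at 5 FPKM and rows of any status. Lgals1 turned to -0.11 in TPM. After quantile normalisation, which sets a value by its rank, Lgals1 was at 0 because it had place 5 in both libraries. Lgals3 turned to -0.09 in TPM, -0.15 after quantile normalisation and -0.07 with its highest row alone. Gpnmb was at 0.09 in TPM and -0.04 after quantile normalisation. Spp1 kept its sign, from -0.17 after median scaling to -1.15 after quantile normalisation, where it passed the size rule. Lgals8 passed the rule after median scaling (1.03). Relative to the median of all counted genes on the deposited FPKM, the changes were 0.37 for Lgals1, 0.39 for Lgals3 and 0.58 for Gpnmb.

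**Figure D4:**
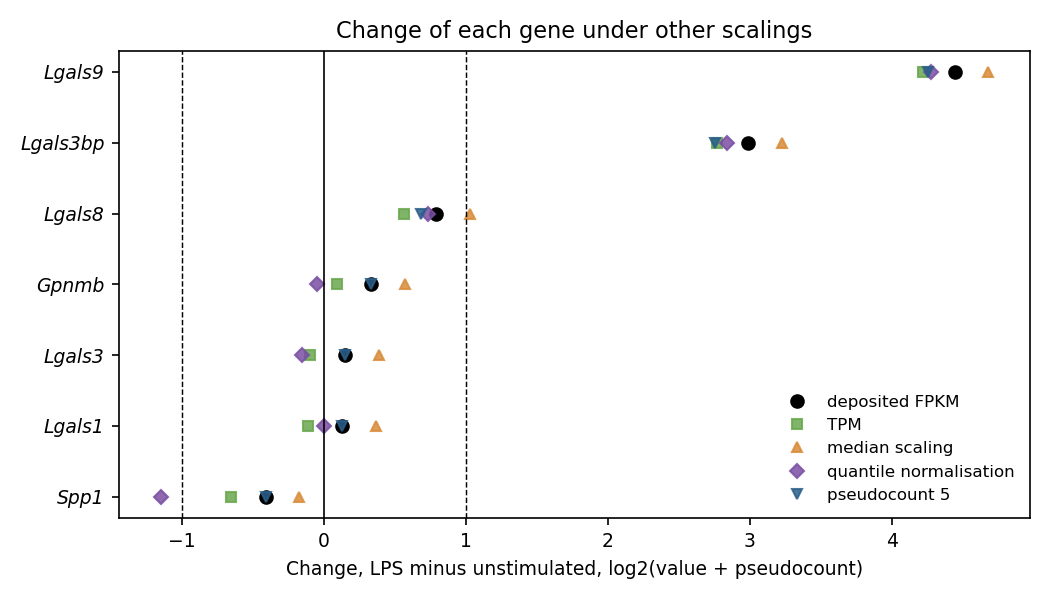
Change of each gene (LPS minus unstimulated, log2 scale) on the deposited FPKM, in TPM, after median scaling, after quantile normalisation and with a pseudocount of 5, with the size rule as dashed lines. Lgals9 and Lgals3bp stay right of the upper line, whereas Lgals1, Lgals3 and Gpnmb straddle 0.

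The other galectin genes were low. Lgals2, a small dimeric galectin, was at 15.7 FPKM (13.1 to 18.4) in the LPS library and 14.0 FPKM (11.4 to 16.5) in the unstimulated library. Lgalsl, a galectin-like gene, was at 3.49 FPKM (3.07 to 3.91) in the LPS library and 4.06 FPKM (3.60 to 4.52) in the unstimulated library. Neither passed the size rule, and the intervals overlapped for both. Lgals4, Lgals7, Lgals12 and Grifin were below 1 FPKM in both libraries. Osteopontin belongs to the SIBLING proteins of bone and teeth, whose genes lie beside each other. Of its relatives, Ibsp, Dmp1 and Dspp were listed at 0 in both libraries and Mepe, the nearest gene before Spp1, was at 0.0293 FPKM in the LPS library and 0.0308 FPKM in the unstimulated library. The melanocyte relative of Gpnmb, Pmel, was at 0.180 FPKM in the LPS library and 0.0236 FPKM in the unstimulated library.

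Receptors of osteopontin and of galectins covered a wide range of levels. Of 6 counted osteopontin receptor genes 2 rose and 0 fell, against 8.54% and 12.4% of all counted genes. The median change of the 6 was 0.76. Cd44, the hyaluronan receptor that osteopontin and galectin 9 also bind, was at 118 FPKM in the LPS library and 19.1 FPKM in the unstimulated library, a change of 2.56 and a ratio of 6.16. Itga5, the integrin alpha chain that pairs with beta 1, was at 51.4 FPKM (50.0 to 52.9) in the LPS library and 5.29 FPKM (4.81 to 5.77) in the unstimulated library, a change of 3.06. Its partner Itgb1 changed by 0.62, Itga4 by 0.89, Itgav by 0.25 and Itgb5 by -0.06. Itgb3, which with Itgav forms the classical osteopontin receptor, was below 1 FPKM in both libraries, as were Itga8 and Itga9.

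Of 11 counted galectin receptor and ligand genes 2 rose and 0 fell, against 8.54% and 12.4% of all counted genes. The median change of the 11 was 0.35. The 2 that rose were Cd44, which is in both lists, and Pdcd1. Pdcd1, the inhibitory receptor PD-1 that galectin 9 also binds, was at 14.7 FPKM (13.5 to 15.9) in the LPS library and 1.03 FPKM (0.699 to 1.36) in the unstimulated library. Havcr2, which encodes TIM-3, was at 5.16 FPKM (4.56 to 5.76) in the LPS library and 3.83 FPKM (3.30 to 4.36) in the unstimulated library, a change of 0.35. Lamp1, a lysosomal membrane protein that carries galectin ligands, was the highest of the list, at 833 FPKM in the LPS library and 663 FPKM in the unstimulated library, and changed by 0.33. Trem2, a lipid receptor of microglia that galectin 3 binds, changed by -0.45 and Mertk, a receptor for dying cells, by -0.91.

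Of 11 counted genes of the response to damaged vesicles, where Lgals3 and Lgals8 act, 2 rose and 1 fell. Among all counted genes 8.54% rose and 12.4% fell. The median change of the 11 was 0.28. The autophagy receptor gene Sqstm1 rose to 816 FPKM (807 to 825) in the LPS library, against 88.3 FPKM (85.3 to 91.3) in the unstimulated library, a change of 3.19. Optn, another autophagy receptor gene, was at 2.06 FPKM (1.66 to 2.46) in the LPS library and 0.330 FPKM (0.165 to 0.495) in the unstimulated library. Nbr1, of the same receptor class, fell to 1.57 FPKM (1.32 to 1.83) in the LPS library, against 7.82 FPKM (7.24 to 8.40) in the unstimulated library. Optn was counted through its LPS value, and the calls of Optn and Nbr1 were lost with a pseudocount of 5. Trim16, a ubiquitin ligase that works with galectin 3, changed by 0.61.

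Among genes that act on or with Gpnmb, Sdc4 had the largest change. Sdc4 encodes syndecan 4, a heparan sulfate proteoglycan known as the T cell ligand of Gpnmb, and was at 231 FPKM (227 to 235) in the LPS library and 16.2 FPKM (15.1 to 17.3) in the unstimulated library, a change of 3.75. Tfeb, a master regulator of lysosomal genes, was at 0.943 FPKM (0.654 to 1.23) in the LPS library and 5.15 FPKM (4.39 to 5.91) in the unstimulated library, a change of -1.66. It was counted through its unstimulated value, and the call was lost with a pseudocount of 5. Its relative Mitf, which drives Gpnmb in melanocytes and osteoclasts, changed by -0.26, Tfe3 by 0.61 and Tfec by 0.79. Thus 1 of 5 counted genes of this list rose and 1 fell, against 8.54% and 12.4% of all counted genes.

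Of 6 counted genes in the list of proteases that cut osteopontin or Gpnmb 0 rose and 2 fell. The shares of all counted genes were 8.54% and 12.4%. Adam10, which sheds the outer part of Gpnmb, was at 5.68 FPKM (5.21 to 6.16) in the LPS library and 13.5 FPKM (12.7 to 14.2) in the unstimulated library, a change of -1.11. That call was lost after median scaling, after quantile normalisation and with a pseudocount of 5. Thbd, which encodes the thrombin cofactor thrombomodulin and is no protease itself, changed by -1.42, a call also lost with a pseudocount of 5, and was counted through its unstimulated value (0.197 FPKM in the LPS library, 2.20 FPKM in the unstimulated library). Adam17, a related sheddase gene, changed by 0.49 and the plasminogen activator gene Plau by -0.18. Thrombin (F2) and Mmp7, both known to cut osteopontin, were listed at 0 in both libraries.

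Lysosome genes were listed as the setting in which Gpnmb is known. Of 20 counted genes 0 rose and 1 fell, against 8.54% and 12.4% of all counted genes. With 20 genes these counts are not far from those shares and show nothing about the list. The median change of the 20 was 0.13. The gene that fell was Atp6v0d2, a proton pump subunit of osteoclasts and macrophages, at 32.1 FPKM (30.6 to 33.7) in the LPS library and 80.6 FPKM (78.1 to 83.2) in the unstimulated library. The genes that mark disease-associated microglia in mouse brain, with which Spp1, Gpnmb and Lgals3 are usually listed, had 2 of 22 counted genes higher and 3 lower, near the 8.54% and 12.4% of all counted genes, so these counts show nothing about the list. Its median change was -0.0022. Csf1, a growth factor of macrophages, rose by 1.54 and Axl, a receptor for dying cells, by 1.53, while the lipoprotein lipase gene Lpl fell by 1.62, the pyrophosphate transporter gene Ank by 1.38 and the chemokine gene Ccl6 by 1.33. A pseudocount of 5 ended the calls of Axl, Ank and Ccl6, and the highest row alone ended that of Axl. Axl was at 2.88 FPKM in the LPS library and 0.347 FPKM in the unstimulated library, so it was counted through its LPS value. Apoe, the lipid carrier, was at 5297 FPKM in the LPS library and 4838 FPKM in the unstimulated library, a level like that of Lgals3, and its change was 0.13. These lists share members, such as Cd63 and the cathepsins.

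**Figure D5:**
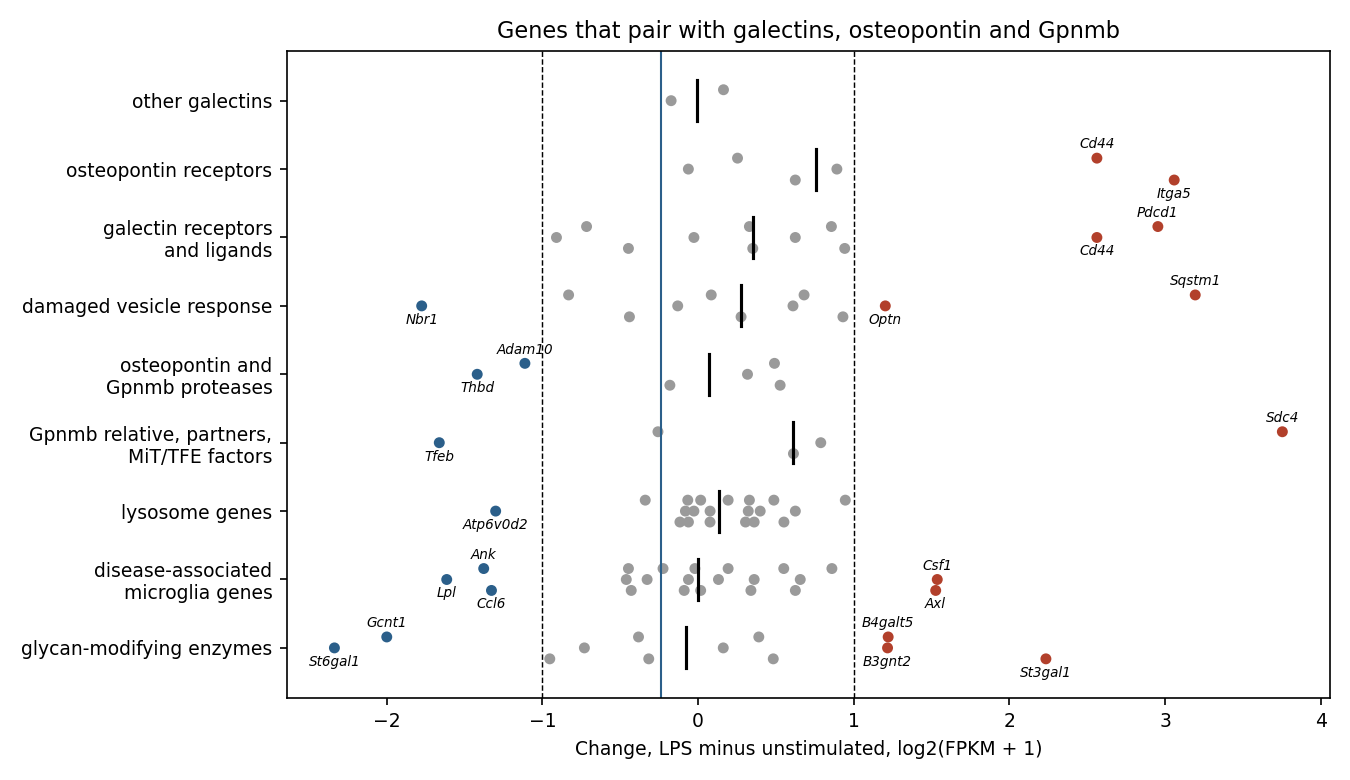
Change (LPS minus unstimulated, log2(FPKM + 1)) of each counted gene in the lists of relatives, receptors, proteases, vesicle, lysosome and glycan genes, with called genes named, list medians as black bars, the size rule as dashed lines and the median of all counted genes (-0.24) in blue. Sdc4 (3.75), Sqstm1 (3.19) and Itga5 (3.06) lie farthest right.

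The genes with the most similar pair of values were found by distance in log2(FPKM + 1) over the 2 libraries. Lgals9 was nearest to Tnfaip2 (539 and 22.4 FPKM in the LPS and unstimulated libraries, distance 0.26) and Slfn2 (768 and 22.1 FPKM, distance 0.44). Lgals3bp was nearest to the complement gene C3 (169 and 19.2 FPKM, distance 0.11) and the ubiquitin ligase gene Rnf19b (136 and 19.1 FPKM, distance 0.20). Gpnmb was nearest to Cstb, an inhibitor of cathepsins (2129 and 1651 FPKM, distance 0.05), and the actin-severing protein gene Cfl1 (2150 and 1650 FPKM, distance 0.06). Lgals1 and Spp1 were near each other (distance 0.44) and to Rpl32, and Lgals3 was near Rps26 and Rpl13a, ribosomal protein genes whose values are uncertain because of near-identical copies. Lgals8 had Rnf25 and Ctnna1 within 0.04. Over 2 libraries such likeness is a match of levels only.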

How the data were processed

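The authors deposited, for each of the 2 RNA libraries, a table of FPKM values with interval bounds and a status. Per the submitters' processing notes these came from Cufflinks on build mm9, with version and aligner not given in the sources used here. Per the labels' protocols, Trizol-extracted total RNA went into a strand-specific kit and 76-base reads. Symbols were looked up in a RefSeq table (GRCm38.p6) that named 97.6% of rows. Loci were read as 0-based at the start and are printed 1-based. Rows without an OK status in both libraries (391) and small RNA rows (713) were left out. Rows were summed per symbol, with interval half-widths added in quadrature as if independent. Implied fragments are (2 × FPKM / half-width) squared. Ratios carry an interval from both libraries, and none is given at 3 or fewer implied fragments. Genes named from lists are those called by size, up to 4 a list, and those that pair with a galectin, osteopontin or Gpnmb. Irf1, Irf9, Ifi35, Bst2, Ccl6, Apoe, B3gnt2 and Mgat5 were named after their values were seen. Members, lists and the rule were chosen with earlier results of these data known. The code for calls and ratio intervals was run on simulated counts, with each interval built from its own count. That run says nothing about the deposited intervals or the spread between cultures. Python 3.11.15, pandas 2.3.3 and NumPy 2.4.6 were used.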

Additional observations from a re-analysis of the deposited data

How the results depend on the processing

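The calls of the 7 genes were recomputed under 9 alternatives. The number called higher stayed at 2 under 8 of them and was 3 after median scaling. The alternatives with no filter, a filter at 5 FPKM and rows of any status could not change these calls. The number called lower was 1 after quantile normalisation, where Spp1 passed the rule, and 0 otherwise. Quantile normalisation sets a value by its rank, and Spp1 stood at place 2 in the unstimulated library and place 7 in the LPS library. Of all counted genes, the number called lower was 1248 on the deposited FPKM, 2061 with a pseudocount of 0.1, 354 with a pseudocount of 5, 2351 in TPM and 699 after median scaling. The number called higher stayed within 1.5 times of 857. For the lists, 177 of 198 recomputed counts stayed within 1.5 times of the count given and 21 did not. The 177 include counts that could not move, such as those with no filter and those of the SIBLING list, with 0 counted genes. With a filter at 5 FPKM, 1 gene of damaged vesicles and 1 of disease-associated microglia were higher, against 2 each, and 1 protease and 1 glycan enzyme gene lower, against 2 each. Leaving out a library was not possible with 1 in each group. No paired analysis was possible because each group has 1 library. For Lgals1, Lgals3, Spp1 and Gpnmb the intervals are narrow beside the shift between scalings, and no replicate checks any value.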

Other observations

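Galectins bind glycans, so the enzymes that build or cap their ligands were listed as well. Of 12 counted genes 3 rose and 2 fell, against 8.54% and 12.4% of all counted genes. The median change of the 12 was -0.08. St6gal1, whose alpha 2,6 sialic acid is known to block galectin 1 binding, was at 0.203 FPKM (0.112 to 0.293) in the LPS library and 5.07 FPKM (4.61 to 5.54) in the unstimulated library, the largest change of the list in size (-2.34). Gcnt1, which starts core 2 branches of O-glycans, was at 0.217 FPKM (0.120 to 0.313) in the LPS library and 3.87 FPKM (3.47 to 4.27) in the unstimulated library. Both were counted through their unstimulated value, and both calls were lost with a pseudocount of 5. St3gal1, which caps core 1 O-glycans, rose to 16.3 FPKM (15.6 to 17.0) in the LPS library, against 2.68 FPKM (2.38 to 2.97) in the unstimulated library. B3gnt2, which extends the lactosamine chains that galectins bind, rose by 1.22 (not past the rule in TPM) and the galactosyltransferase gene B4galt5 by 1.22. Mgat5, whose branched N-glycans galectin 3 binds, changed by -0.38 at about the detection filter (0.658 and 1.16 FPKM in the LPS and unstimulated libraries).

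Neighbouring genes were read from the deposited mm9 loci, where before and after mean lower and higher coordinates, whatever the strand. Lgals9 is on the minus strand, so the gene before it lies past its 3′ end. Nos2, the inducible nitric oxide synthase gene, ends 2854 bases before Lgals9 and was at 140 FPKM in the LPS library and 0.649 FPKM in the unstimulated library, a change of 6.42. On the other side of Lgals9, 29876 bases away, Ksr1 was at 2.64 FPKM in the LPS library and 0.470 FPKM in the unstimulated library, a change of 1.31. Both Nos2 and Ksr1 were counted through the LPS value. The neighbours of Lgals3bp, Timp2 and Cant1, changed by -0.46 and 0.26. Pdxp, 7207 bases before Lgals1, changed by -1.31, and apart from Nos2, Ksr1 and Pdxp no neighbour of the 7 genes passed the size rule. Dlgap5, a mitotic gene 1611 bases after Lgals3, changed by -0.71, and Pkd2, 18403 bases after Spp1, by -0.85.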
